A study of Sus scrofa with 22 samples.

Results

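Fibroblast growth factors (FGFs) are secreted ligands that bind receptor tyrosine kinases at the cell surface together with heparan sulfate. The receptors act through adaptor proteins, Ras and the MEK and ERK kinases and the PI3K and AKT branch, and ERK activity induces Sprouty proteins and dual-specificity phosphatases that restrain the same pathway. FGF7 and FGF10 are paracrine ligands that act on the epithelial form of FGFR2, and in the pig uterus FGF7 is known as a product of the luminal epithelium whose receptor is found in endometrial epithelia and in the trophectoderm of the conceptus.

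The genes described here are the ligands FGF2, FGF7, FGF9 and FGF10, the receptors FGFR1, FGFR2, FGFR3 and FGFR4 and the Sprouty inhibitors SPRY2 and SPRY4, taken by symbol. They are 10 of the 12401 genes listed in at least 1 of the tables, 1 table for each compartment. The compartments were the luminal epithelium (LE), the epithelium of the glands (GE) and the stroma (S). FGF2, FGF7, FGF10, FGFR2, FGFR3, SPRY2 and SPRY4, 7 of the 10, were listed for all 3 compartments. FGF9 and FGFR4 were listed for LE only and FGFR1 for GE only. A gene missing from a table was not analysed there and was not taken as 0.

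Cells were captured by laser microdissection from frozen, cresyl violet-stained endometrium of 8 gilts on Day 12. All gilts were prepuberal crossbreeds of German Landrace and Piétrain whose ovulation had been synchronized with the gonadotropins PMSG and hCG. The 4 pregnant gilts (01, 03, 05 and 14) were inseminated with semen, and the 4 nonpregnant, cyclic control gilts (02, 04, 06 and 13) with the cell-free supernatant of semen from the same boar, so that seminal plasma was given to both groups. LE and GE had 1 library from each gilt and S had 1 from each of 3 control (02, 04, 13) and 3 pregnant (01, 05, 14) gilts, 22 libraries in all. An S library thus holds RNA of several cell types, immune cells among them, since stroma was captured by area.

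The LE libraries held 893912 to 4020796 counts, the GE libraries 1994670 to 3702061 and the S libraries 1344151 to 3278733. Levels are given as CPM, counts scaled to a fixed library total. A count of 3 was worth 0.694 to 3.57 CPM, depending on the library, and levels near it are imprecise. All CPM values below are on 1 scale over the 22 libraries. With bulk RNA, fewer cells of a type and less RNA per cell cannot be told apart.

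The labelled compartments were not separated by the markers of their cell types. All 8 epithelium markers and all 9 fibroblast markers were listed for all 3 compartments. The epithelium markers (such as EPCAM and CDH1) summed to 2705 to 3334 CPM in control LE, 702 to 2093 CPM in control GE and 2462 to 2996 CPM in control S. The fibroblast markers (such as COL1A1 and DCN) summed to 12840 to 18710 CPM in control LE, 4348 to 47820 CPM in control GE and 5253 to 9255 CPM in control S. Of the S libraries, that of pregnant gilt 01 had the highest fibroblast sum (64020 CPM) and the lowest epithelium sum (978 CPM). LE, GE and S therefore name what was captured, and a level in S is not a level in fibroblasts alone. Some epithelium markers themselves differed with pregnancy, in both directions. In LE CDH1 and ELF3 were called higher in pregnant gilts (log2 fold changes 0.94 and 1.11). KRT8, KRT19 and KRT7 were called lower there (−1.37, −2.19 and −1.65), as was KRT7 in S (−3.14). Between pregnant and control libraries the epithelium sum is thus not a measure of cell content alone.

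For FGF7, SPRY4 and FGFR3, on which the comparisons below turn, the 250 bases before the annotated gene start are shown in full. They were read from the RefSeq genome of build Sscrofa11.1, 5′ to 3′ on the strand of the gene. Capitals mark matches on either strand to the TATA box (TATAAA) or the GC box (GGGCGG).
FGF7, chr1:122278706-122278955, minus strand: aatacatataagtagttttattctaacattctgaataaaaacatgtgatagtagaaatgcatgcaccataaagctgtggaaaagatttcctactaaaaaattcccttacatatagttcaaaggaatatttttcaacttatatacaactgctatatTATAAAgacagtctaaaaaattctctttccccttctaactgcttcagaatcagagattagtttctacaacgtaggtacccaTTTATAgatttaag
SPRY4, chr2:143891281-143891530, minus strand: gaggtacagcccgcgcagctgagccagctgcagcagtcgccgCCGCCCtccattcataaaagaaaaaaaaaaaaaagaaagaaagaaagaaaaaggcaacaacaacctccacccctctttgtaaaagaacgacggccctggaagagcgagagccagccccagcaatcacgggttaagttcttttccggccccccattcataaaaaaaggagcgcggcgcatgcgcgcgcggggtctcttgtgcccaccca
FGFR3, chr8:878901-879150, plus strand: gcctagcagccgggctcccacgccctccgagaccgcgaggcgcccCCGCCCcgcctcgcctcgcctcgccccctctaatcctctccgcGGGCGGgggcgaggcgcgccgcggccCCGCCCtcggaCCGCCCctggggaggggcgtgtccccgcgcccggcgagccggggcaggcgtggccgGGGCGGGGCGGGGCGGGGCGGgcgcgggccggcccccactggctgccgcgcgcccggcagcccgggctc
The FGF7 window was poor in G and C (28.8%, against a median of 60.8% over the windows of 11642 listed genes) and held 2 matches to TATAAA, starting 95 and 14 bases before the gene start, where 7.14% of all windows held a match. The FGFR3 window had 86.4% G and C and 8 matches to GGGCGG, 4 of them in a row with overlapping letters. The SPRY4 window (54.4%) had 1 match, and 56.6% of all windows held this motif. The other motifs searched on both strands were AP-1 (TGANTCA, in 4.08% of windows), the cyclic AMP response element (TGACGTCA, 2.29%), an ETS motif (CCGGAAG, 10.9%) and the oestrogen response element (GGTCA and TGACC, 3 bases apart, 0.00859%). The FGF2 window held 1 AP-1 match, and no other of the 10 windows held a match to these 4 motifs. A match of letters is not a binding site.

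FGF7 (gene ID 397281, chromosome 1, 122215878 to 122278705, minus strand), the keratinocyte growth factor, was the ligand with the highest level. Per kilobase of annotated exon it averaged 782 CPM in LE, above 99.7% of the genes listed there. It averaged 142 CPM per kilobase in GE (above 97.4%) and 435 CPM per kilobase in S (above 99.3%). In control LE its level was 683, 408, 276 and 988 CPM in gilts 02, 04, 06 and 13. In pregnant LE it was 2609.8, 2356, 3966 and 2267 CPM in gilts 01, 03, 05 and 14. All pregnant LE libraries were above all control LE libraries, and the groups of 26.7% of all genes tested in LE did not overlap in either direction.

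FGF7 rose in LE of pregnant gilts from 589 ± 316 to 2799.7 ± 791 CPM (SD, n = 4 per group), a log2 fold change of 2.24 (SE 0.38, edgeR quasi-likelihood FDR 0.00271). It was the 1 of the 9 members listed for LE that passed the FDR threshold of 0.01, which 10% of all 11415 genes tested there passed (6.33% higher and 3.71% lower in pregnant gilts). The call depended on the control library of gilt 04, without which the log2 fold change was 2.11 and the FDR 0.0121. It was also lost with the 6 gilts that had an S library (log2 fold change 2.08, FDR 0.0114). The fibroblast marker sum in LE lay between 12840 and 18710 CPM in the control and between 9595 and 24640 CPM in the pregnant group, and the epithelium sum between 1933 and 3395 CPM in the latter; their part in the FGF7 result was not tested.

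In GE the FGF7 level was 174, 128, 195 and 74.4 CPM in the control gilts 02, 04, 06 and 13. It was 624, 221, 758 and 289 CPM in the pregnant gilts 01, 03, 05 and 14. The groups did not overlap here either, as was the case for 4.97% of all genes tested in GE. The epithelium marker sums of GE were 702, 1536, 2093 and 1737 CPM in these control and 1920, 2511, 2914 and 2413 CPM in these pregnant gilts, so that they too were higher in most pregnant libraries, and their part in the FGF7 level was not tested. The log2 fold change of 1.73 (SE 0.46, 95% confidence interval 0.69 to 2.77) had an edgeR quasi-likelihood FDR of 0.356 and did not pass the threshold used for GE and S, an unadjusted p below 0.0021. The likelihood ratio test of edgeR and the Wald test of DESeq2 did call it, as did the quasi-likelihood test without pregnant gilt 03. None of the 8 members listed for GE was called, where 0.694% of all genes were called (0.574% higher and 0.12% lower), and at an unadjusted quasi-likelihood p under 0.05 FGF7 was the only member, where 8.09% of all genes were.

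In S the FGF7 level was 1158, 296 and 1106 CPM in the control gilts 02, 04 and 13 and 347, 2252 and 498 CPM in the pregnant gilts 01, 05 and 14. Gilt 05 was the highest of all and the other pregnant gilts lay within the range of the controls. The log2 fold change was 0.28 (SE 0.81, edgeR FDR 0.937), with a 95% confidence interval of −1.61 to 2.18. It turned to −0.99 without gilt 05. The epithelium marker sum was also highest in the S library of gilt 05 (3529 CPM) and lowest in that of gilt 01 (978 CPM), and its part in the FGF7 level was not tested. None of the 7 members listed for S was called by edgeR or by DESeq2, where edgeR called 1.47% of all genes. At an unadjusted quasi-likelihood p under 0.05 FGFR3 was the only member, where 12.5% of all genes were.

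FGF9 (gene ID 396717, chromosome 11, 1554648 to 1581938, plus strand), a ligand of the mesenchymal receptor forms, was listed for LE only and had a low level. It was at 4.09, 5.11, 4.53 and 0.926 CPM in the control gilts 02, 04, 06 and 13, which were 4 to 19 counts. In the pregnant gilts 01, 03, 05 and 14 it was at 16.7, 28.9, 16.8 and 7.51 CPM, or 14 to 55 counts. The groups did not overlap, as for 26.7% of all genes tested in LE. The log2 fold change of 2.24 (SE 0.54) was as large as that of FGF7 but did not pass the threshold (edgeR quasi-likelihood FDR 0.0147). It passed without pregnant gilt 14 (FDR 0.00463) and in the likelihood ratio and DESeq2 tests. The annotated FGF9 model holds 819 exon bases, so its level per kilobase (12.9 CPM in LE) depends on a short model.

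FGF10 (gene ID 100525086, chromosome 16, 28695465 to 28779953, minus strand), the other ligand of the epithelial FGFR2 form, was a low-level gene in all compartments, at 4.41, 3.48 and 2.44 CPM per kilobase in LE, GE and S. In LE the control gilts 02, 04, 06 and 13 had 34.9, 31.5, 19.9 and 28.2 CPM. The pregnant gilts 01, 03, 05 and 14 had 46.4, 21.5, 23.8 and 21.0 CPM, so that gilt 01 stood apart and the others lay within or near the control range. The log2 fold change in LE was −0.09 (95% confidence interval −0.74 to 0.56, edgeR FDR 0.863), and an increase as large as that of FGF7 lies outside this interval.

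In GE the FGF10 level was 60.1, 36.8, 19.4 and 8.38 CPM in control gilts 02, 04, 06 and 13 and 21.0, 10.8, 18.0 and 4.55 CPM in pregnant gilts 01, 03, 05 and 14 (log2 fold change −1.20, SE 0.64, edgeR FDR 0.697). Without control gilt 02 the log2 fold change was −0.63. The order of the control GE libraries by FGF10 was that of their fibroblast marker sums (47820, 17410, 12890 and 4348 CPM in gilts 02, 04, 06 and 13). The orders differed in pregnant GE, where these sums were 31840, 15000, 11820 and 10640 CPM in gilts 01, 03, 05 and 14. They matched in control S, but not in pregnant S or in either LE group. The part of fibroblasts in the FGF10 level was not tested. In S the FGF10 level was 6.16, 8.98 and 14.2 CPM in control gilts 02, 04 and 13 and 46.0, 10.9 and 7.87 CPM in pregnant gilts 01, 05 and 14. The high S value belongs to the library with the high fibroblast sum. The log2 fold change in S was 1.15 (SE 0.74, edgeR FDR 0.59) with that library and −0.07 without it.

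FGF2 (gene ID 397643, chromosome 8, 101278877 to 101344084, minus strand), the basic FGF, was between 10.2 and 66.6 CPM in all libraries but control GE of gilt 02 (182 CPM) and pregnant LE of gilt 03 (5.77 CPM). The other control GE libraries of gilts 04, 06 and 13 had 28.0, 14.1 and 12.4 CPM and the pregnant ones of gilts 01, 03, 05 and 14 had 52.5, 22.9, 16.3 and 20.7 CPM. In GE its log2 fold change was −1.10 (SE 0.88, edgeR FDR 0.793) with control gilt 02 and 0.66 without it. In LE and S the log2 fold changes were 0.45 (SE 0.56) and 0.72 (SE 0.51), with edgeR FDRs of 0.608 and 0.632, and the one in LE was −0.34 without gilt 01.

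The libraries with the most FGF2 were also those with the most smooth muscle marker RNA. The 5 listed smooth muscle markers summed to 8218 CPM in control GE of gilt 02, against 14.6 to 348 CPM in the other control GE libraries. They summed to 2238 CPM in pregnant GE of gilt 01, against 459 to 1457 CPM in the other pregnant GE libraries. In pregnant LE of gilt 01, where FGF2 was at 66.6 CPM, the 3 markers listed for LE summed to 5065 CPM, against 123 to 635 CPM in the other LE libraries. Control GE of gilt 02, pregnant GE of gilt 01 and pregnant LE of gilt 01 also had the highest fibroblast marker sums of their groups (47820, 31840 and 24640 CPM). The same held for their blood endothelium marker sums (1210, 980 and 1495 CPM). The part of each of these cell types in the FGF2 level was not tested. The exons of FGF2 also overlap those of NUDT6, on the opposite strand, over 1014 bases (15.17% of its exon length), and 14.23% of its 50-base windows occur in NUDT6. The use of strand in counting is not given in the sources used here, so reads of this overlap cannot be assigned; NUDT6 itself was at 12.5 to 62.0 CPM. No other member shared exon sequence with another gene.

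**Figure D1:**
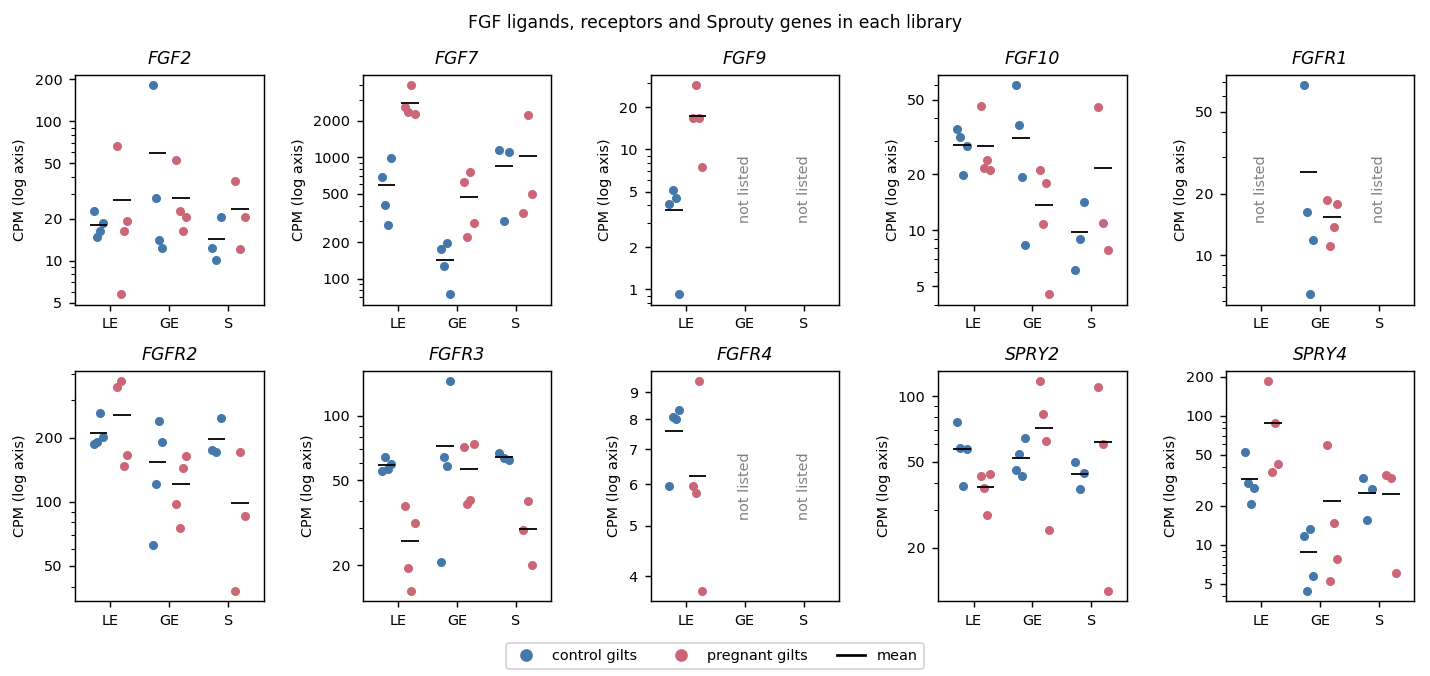
Levels of the 10 genes in each library, as CPM on log axes that differ between panels, by compartment (LE, GE, S) for control (blue) and pregnant (red) gilts, with the mean of each group as a line. FGF7 in LE lies between 276 and 988 CPM in the controls and between 2267 and 3966 CPM in the pregnant gilts, and the FGF2 and FGFR1 points far above the others in GE are control gilt 02.

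FGFR2 (gene ID 396762, chromosome 14, 131183095 to 131285001, minus strand) was the receptor with the highest level. It averaged 88.2, 51.9 and 56.1 CPM per kilobase in LE, GE and S and lay above 94.7%, 90.9% and 91.7% of the listed genes. In LE the control gilts 02, 04, 06 and 13 had 186, 191, 263 and 201 CPM and the pregnant gilts 01, 03, 05 and 14 had 345, 368, 147 and 166 CPM. The pregnant gilts thus lay on both sides of the controls (log2 fold change 0.27, SE 0.30, edgeR FDR 0.563). In GE the range was 62.5 to 241 CPM in the control and 75.7 to 165 CPM in the pregnant group (log2 fold change −0.34, SE 0.41, edgeR FDR 0.865).

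In S the FGFR2 level was 175, 171 and 248 CPM in control gilts 02, 04 and 13 and 38.3, 172 and 86.0 CPM in pregnant gilts 01, 05 and 14 (log2 fold change −0.97, SE 0.50, edgeR FDR 0.49). The order of the pregnant S libraries by FGFR2 was that of their epithelium marker sums (978, 3529 and 2079 CPM in gilts 01, 05 and 14), whose part in the result was not tested. The annotation gives FGFR2 a single transcript, and gene counts do not separate its epithelial and mesenchymal forms. ESRP1, a splicing factor that promotes the epithelial form, averaged 180, 149 and 181 CPM over the LE, GE and S libraries and did not pass the test in any compartment.

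FGFR3 (gene ID 100514115, chromosome 8, 879151 to 894968, plus strand) had the most even control levels of the receptors in LE and S. In LE it was at 55.0, 64.0, 56.5 and 59.7 CPM in control gilts 02, 04, 06 and 13 and at 38.1, 19.4, 15.2 and 31.6 CPM in pregnant gilts 01, 03, 05 and 14. In S it was at 67.4, 63.5 and 62.5 CPM in control gilts 02, 04 and 13 and at 29.1, 40.0 and 20.0 CPM in pregnant gilts 01, 05 and 14. All pregnant libraries were below all control libraries in both compartments, where 26.7% (LE) and 17.4% (S) of all genes did not overlap in either direction.

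FGFR3 had a log2 fold change of −1.22 in LE (SE 0.27, edgeR FDR 0.0102) and missed the threshold by little. It passed without pregnant gilt 01 (FDR 0.00447) or 14 (FDR 0.00666), with library size alone in place of TMM normalization (FDR 0.0071), with genes of at least 10 counts in every library (FDR 0.00592) and in the likelihood ratio and DESeq2 tests. In S it was −1.08 (SE 0.31, edgeR FDR 0.232). In GE the control gilts 02, 04, 06 and 13 had 20.8, 64.3, 58.5 and 145 CPM, which enclosed the pregnant values of 71.6, 38.6, 40.4 and 74.2 CPM (log2 fold change −0.36, SE 0.51, edgeR FDR 0.888). Without control gilt 13 the log2 fold change in GE was 0.25.

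FGFR1 (gene ID 100153248, chromosome 15, 48053895 to 48106634, plus strand), a receptor typical of mesenchymal cells, was listed for GE only. It was at 67.7, 16.2, 6.46 and 11.9 CPM in control gilts 02, 04, 06 and 13 and at 18.5, 11.1, 13.7 and 17.9 CPM in pregnant gilts 01, 03, 05 and 14. The high value was again the library of gilt 02 with the high smooth muscle, fibroblast and blood endothelium sums. Its log2 fold change was −0.75 (SE 0.68, edgeR FDR 0.817), and 0.44 without that library. FGFR4 (gene ID 100127133, chromosome 2, 80841536 to 80853791, minus strand) was listed for LE only and had the lowest level per kilobase of the members there (2.16 CPM). It ranged from 5.94 to 8.33 CPM in the control and from 3.75 to 9.45 CPM in the pregnant group, at 5 to 36 counts per library (log2 fold change −0.28, SE 0.35, edgeR FDR 0.615).

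**Figure D2:**
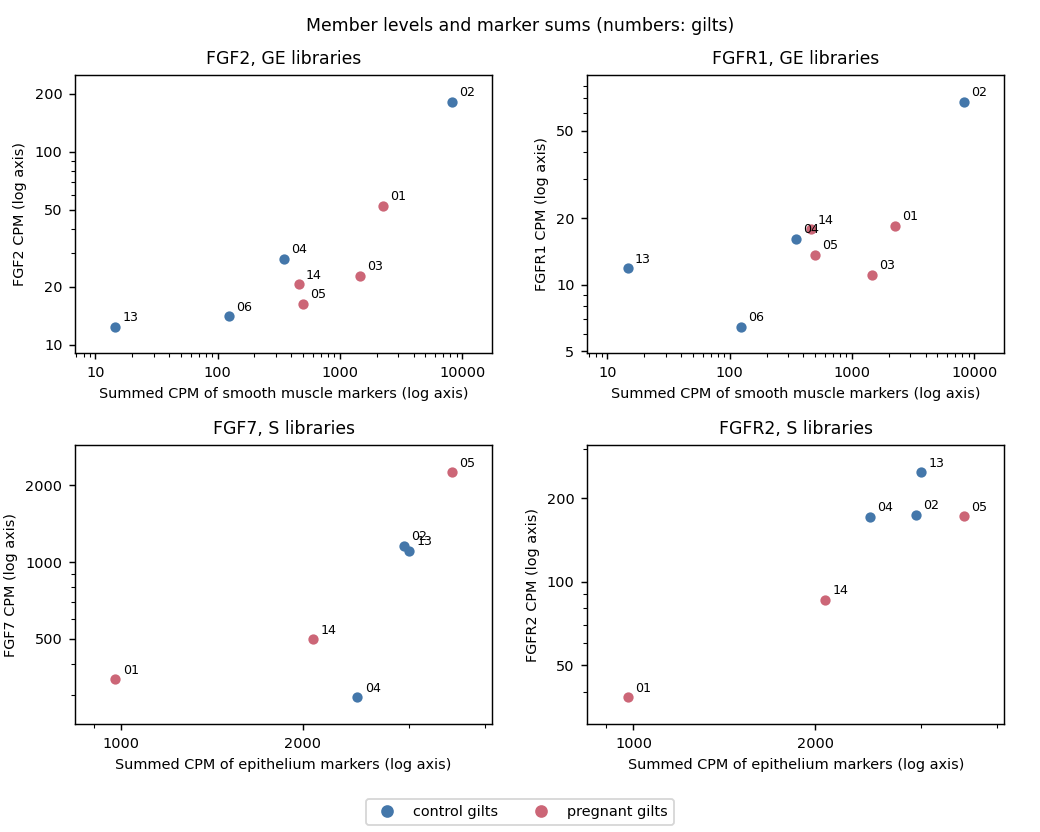
Levels of FGF2 and FGFR1 in GE against the summed CPM of smooth muscle markers, and of FGF7 and FGFR2 in S against the summed CPM of epithelium markers, 1 point per library with its gilt number, all on log axes. Control GE of gilt 02 holds 8218 CPM of smooth muscle markers and also 47820 CPM of fibroblast markers, which are not drawn. Pregnant S of gilt 01 holds 978 CPM of epithelium markers and the lowest FGFR2.

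SPRY2 (gene ID 100157266, chromosome 11, 52153695 to 52158766, minus strand) and SPRY4 (gene ID 100512891, chromosome 2, 143877334 to 143891280, minus strand) encode inhibitors of the Ras and ERK branch that are themselves induced by it. SPRY2 was at 76.2, 57.5, 38.7 and 56.9 CPM in LE of control gilts 02, 04, 06 and 13 and at 42.8, 37.8, 28.4 and 43.8 CPM in LE of pregnant gilts 01, 03, 05 and 14. Only control gilt 06 lay within the range of the pregnant gilts (log2 fold change −0.60, SE 0.24, edgeR FDR 0.0951).

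In GE and S the SPRY2 levels of pregnant gilts spread around those of the controls. They were 117, 83.1, 62.3 and 24.2 CPM in GE of gilts 01, 03, 05 and 14, against 43.0 to 64.4 CPM in the controls (log2 fold change 0.47, SE 0.41, edgeR FDR 0.808). They were 110, 60.5 and 12.7 CPM in S of gilts 01, 05 and 14, against 37.4 to 49.7 CPM in the controls (log2 fold change 0.51, SE 0.67, edgeR FDR 0.829). Gilt 01 was the highest and gilt 14 the lowest in both compartments.

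SPRY4 was at 52.4, 30.1, 20.6 and 27.3 CPM in LE of control gilts 02, 04, 06 and 13 and at 184, 36.7, 87.2 and 42.2 CPM in LE of pregnant gilts 01, 03, 05 and 14. This was a log2 fold change of 1.38 (SE 0.49, edgeR FDR 0.0705), and the groups overlapped through control gilt 02. Without pregnant gilt 01 it was 0.78. In GE the control range was 4.42 to 13.2 CPM and the pregnant gilts 01, 03, 05 and 14 had 59.6, 5.25, 14.8 and 7.70 CPM (log2 fold change 1.29, SE 0.77, edgeR FDR 0.719). Without gilt 01 the log2 fold change in GE was 0.07. In S the log2 fold change was −0.02 (SE 0.64, edgeR FDR 0.994), with 33.1, 15.6 and 26.9 CPM in control gilts 02, 04 and 13 and 34.5, 33.1 and 6.06 CPM in pregnant gilts 01, 05 and 14. The 184 CPM of LE and the 59.6 CPM of GE belong to the gilt whose smooth muscle marker sum was the highest of the pregnant gilts in both. Control GE of gilt 02 had the highest smooth muscle sum of all libraries (8218 CPM), with SPRY4 at 11.6 CPM. S of gilt 01 had the highest such sum of S (1038 CPM), with SPRY4 close to that of control gilt 02. The part of these cells in the SPRY4 level was not tested.

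**Figure D3:**
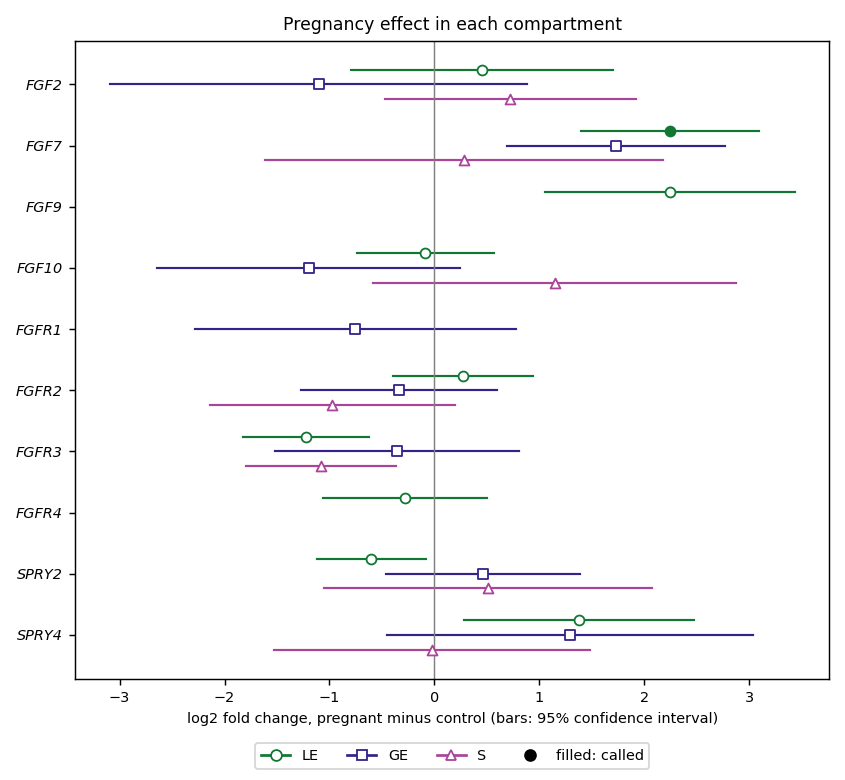
Log2 fold change of each gene between pregnant and control gilts (horizontal axis, pregnant minus control) in LE (circles), GE (squares) and S (triangles), with 95% confidence intervals from the edgeR quasi-likelihood fit. FGF7 in LE at 2.24 is the only filled symbol, that is, the only gene past the threshold of its compartment. The threshold was an FDR below 0.01 in LE and an unadjusted p below 0.0021 in GE and S. FGF9 and FGFR3 in LE had quasi-likelihood p-values of 0.00178 and 0.00104, which are below 0.0021 but were not called under the LE rule. The intervals of FGF9, FGFR3, SPRY2 and SPRY4 in LE, of FGF7 in GE and of FGFR3 in S also leave out 0.

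Within each compartment the members could be ordered by level per kilobase, averaged over control and pregnant libraries together. In LE the order was FGF7 (782 CPM per kilobase), FGFR2 (88.2), SPRY2 (20.7), FGF9 (12.9), SPRY4 (10.7), FGFR3 (9.03), FGF10 (4.41), FGF2 (3.38) and FGFR4 (2.16). FGF7 was above FGFR2 and FGFR2 above SPRY2 in all 8 LE libraries. FGF9 was above SPRY4 in 5, SPRY4 above FGFR3 in 4 and FGF10 above FGF2 in 7, so that SPRY2, FGF9, SPRY4 and FGFR3 had overlapping ranges. Their order was not the same in both groups. In control LE FGFR3 (12.5 CPM per kilobase) stood above SPRY4 (5.80) and FGF9 (4.47), and in pregnant LE FGF9 (21.3) stood above SPRY2 (16.6), SPRY4 (15.6) and FGFR3 (5.55).

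In GE the order was FGF7 (142 CPM per kilobase), FGFR2 (51.9), SPRY2 (26.8), FGFR3 (13.7), FGF2 (6.53), FGFR1 (6.22), FGF10 (3.48) and SPRY4 (2.72), and the range of every member overlapped that of the next. FGF7 was above FGFR2 in 6 of 8 GE libraries. In S the order was FGF7 (435), FGFR2 (56.1), SPRY2 (22.8), FGFR3 (10.0), SPRY4 (4.43), FGF2 (2.83) and FGF10 (2.44). FGF7 and FGFR2 were the only neighbours in this order whose ranges did not overlap. SPRY4 was last in control GE (1.55 CPM per kilobase, FGF10 4.85), but not in pregnant GE (3.89, FGF10 2.11).

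The compartments were compared within the same gilts in a joint edgeR fit of the 10643 genes listed for all 3, with the gilt as a block. FGF7 and SPRY4 were lower in GE than in LE, in all 8 gilts. These were 2 of the 7 members tested, where 20.8% of all genes were called for this difference (FDR below 0.01) and 10.4% as lower in GE. The log2 difference of GE minus LE was −2.29 for FGF7 (SE 0.35, edgeR FDR 0.000394), with ratios within a gilt from 0.0753 in gilt 13 to 0.708 in gilt 06. It was −2.11 for SPRY4 (SE 0.25, edgeR FDR 0.000104), with ratios from 0.143 in gilt 03 to 0.642 in gilt 06. SPRY4 had 9 to 47 counts in the control and 17 to 119 counts in the pregnant GE libraries. An alternative chosen after the data were seen left out 3 libraries with high smooth muscle or fibroblast sums (control GE of gilt 02, pregnant LE and S of gilt 01). The log2 differences were then −2.34 and −2.20 and both were called. Pregnant GE of gilt 01 came next on both lists (2238 CPM of smooth muscle and 31840 CPM of fibroblast markers) and was kept.

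The other 5 members were not called between GE and LE. FGFR2 was lower in GE in all 8 gilts (log2 difference −0.85, SE 0.31, edgeR FDR 0.0458), and in gilt 14 the ratio was 0.996. FGFR3 was higher in GE in 7 of 8 gilts, with gilt 02 as the exception (log2 difference 0.63, SE 0.29, edgeR FDR 0.103). The log2 differences of FGF2, FGF10 and SPRY2 were 0.68 (SE 0.42), −0.56 (SE 0.33) and 0.24 (SE 0.27), and SPRY2 passed only without gilt 14 (0.56, edgeR FDR 0.00724).

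No member was called between S and LE as an average over control and pregnant gilts, where 1.7% of all genes were. SPRY4 came closest, with a log2 difference of S minus LE of −1.27 (SE 0.27, edgeR FDR 0.0156), and was lower in S in 6 of 6 gilts, with ratios from 0.143 to 0.984. It was called without gilt 06, which has no S library (FDR 0.00676). FGF10 was likewise lower in S in 6 of 6 gilts (log2 difference −1.21, SE 0.38, edgeR FDR 0.0659), and FGF7 in 4 of 6 (−0.80, SE 0.38, edgeR FDR 0.191).

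The difference between S and LE was also taken within each group. Within pregnant gilts SPRY4 was lower in S, with a log2 difference of −2.17 (SE 0.40, edgeR FDR 0.00551), and was the 1 of 7 members called, where 3.14% of all genes were. The call was lost without gilt 01, 03, 04 or 14 (FDR 0.0108 to 0.0623), without the 3 libraries of high muscle or fibroblast markers (FDR 0.0323) and without the gilt as a block (FDR 0.13). FGF7 had a log2 difference of −1.99 (SE 0.57, edgeR FDR 0.0323) within pregnant gilts. Within control gilts the log2 difference was 0.40 for FGF7 (SE 0.51, edgeR FDR 0.919) and −0.36 for SPRY4 (SE 0.37, edgeR FDR 0.882). There edgeR called no gene at all (0%), and 6.5% of all genes had an unadjusted p under 0.05. The differences between the groups are the interaction terms given further on, which were not called.

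No gene at all was called between S and GE by edgeR at an FDR below 0.01 (0%), although 13.2% of all genes had an unadjusted p under 0.05. FGF7 was higher in S than in GE in 5 of 6 gilts (log2 difference 1.49, SE 0.39, edgeR FDR 0.157), and lower in gilt 01 (ratio 0.555).

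**Figure D4:**
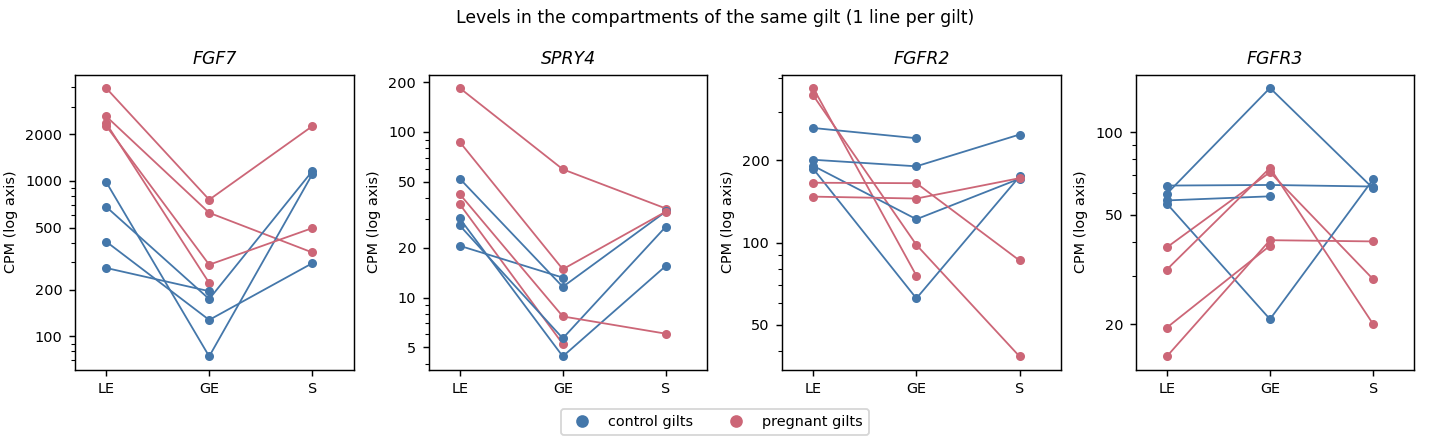
CPM of FGF7, SPRY4, FGFR2 and FGFR3 (log axes) in LE, GE and S, with 1 line for each gilt (blue control, red pregnant). The FGF7, SPRY4 and FGFR2 lines fall from LE to GE in all 8 gilts, that of FGFR2 by little in gilt 14 (ratio 0.996). The FGFR2 difference was not called. The FGFR3 lines rise from LE to GE in 7 of 8 gilts, with gilt 02 as the exception.

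Whether the pregnancy effect differed between compartments was tested with interaction terms of the same fit. No member was called for LE against GE, LE against S or GE against S, where 0.395%, 0.0188% and 0% of all genes were. For GE against S, 9.9% of all genes had an unadjusted p under 0.05. For FGF7 the effect in LE exceeded that in S by 2.39 on the log2 scale (SE 0.75, 95% confidence interval 0.77 to 4.01, edgeR FDR 0.182) and that in GE by 0.80 (95% confidence interval −0.67 to 2.27, edgeR FDR 0.619). For SPRY4 the effect in LE exceeded that in S by 1.81 (SE 0.53, 95% confidence interval 0.66 to 2.96, edgeR FDR 0.159). For FGFR3 the effect in LE minus that in GE had a 95% confidence interval of −2.23 to 0.22 (edgeR FDR 0.407), and the effects in LE and S differed by −0.05 (95% confidence interval −1.42 to 1.33). The FGF7 call in LE is thus not shown to be confined to LE.

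The other genes of the pathway were taken from a list of 91, of which 62 were listed for LE, 63 for GE and 64 for S. In LE 7 of them were higher and 3 lower in pregnant gilts past the threshold, together 16.1% of those listed. In GE 3 were higher and none lower, or 4.76%. In S none was called. Of all genes, 10% were called in LE, 0.694% in GE and 1.47% in S. The median log2 fold change over the listed genes was 0.03 in LE, −0.05 in GE and 0.19 in S, and over all genes 0.01, −0.02 and 0.08.

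Of the 18 other FGF ligands 1 was listed per compartment and none was called. In GE and S it was FGF13, an intracellular member of the family (log2 fold change 1.02 in GE and 2.96 in S, edgeR FDRs 0.719 and 0.365). The control S libraries held from 0.385 CPM of FGF13 (1 count) to 29.0 CPM (97 counts), so that its fold change in S is imprecise. Leaving out 1 gilt moved the value in S from 2.08 (without pregnant gilt 14) to 5.16 (without control gilt 04). In LE it was FGF18, a secreted ligand, named here after its values were seen. It averaged 7.29 CPM in the control and 1.19 CPM in the pregnant gilts (edgeR FDR 0.0101). The latter is within the 0.915 to 3.57 CPM that 3 counts were worth in these libraries, so that no fold change is given. None of the co-receptors and binding proteins was called, and all 4 listed for LE had log2 fold changes below 0. KL and FGFBP1 among them, also named after their values were seen, averaged 3.31 and 2.77 CPM in the pregnant gilts. This is again within the CPM that 3 counts were worth, so that no fold change is given for them and no median for the 4. FLRT2, a membrane protein that binds FGF receptors, was lower in LE in 4 of 4 pregnant gilts (19.8 ± 2.09 against 9.86 ± 1.80 CPM, SD, n = 4), with an edgeR FDR of 0.0117. Of all genes tested in LE, 26.7% had groups without overlap.

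Of the heparan sulfate genes, 2 of 17 were called higher in LE and none lower, where 10% of all genes were called in either direction. Called or not, 9 of the 17 had log2 fold changes above 0 and 8 below. HS6ST1, which adds 6-O-sulfate to heparan sulfate, rose from 37.3 ± 6.51 to 155 ± 29.5 CPM (log2 fold change 2.06, SE 0.20, edgeR FDR 0.000152). SDC4, a membrane heparan sulfate proteoglycan, rose from 62.7 ± 16.9 to 141 ± 24.3 CPM (log2 fold change 1.17, SE 0.23, edgeR FDR 0.00543). The SDC4 call was lost without control gilt 04, 06 or 13 or pregnant gilt 05 (FDR 0.0121 to 0.0194). In GE GLCE, the epimerase of heparan sulfate, rose from 88.7 ± 10.4 to 210 ± 59.8 CPM (log2 fold change 1.24, SE 0.24, edgeR FDR 0.189), 1 of 18 of these genes there, where 0.694% of all genes were called. It passed the threshold on the unadjusted p, but not without control gilt 04 or pregnant gilt 03 or 05. In LE GLCE had a log2 fold change of −0.41 (SE 0.18, edgeR FDR 0.121) and was not called.

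Between the receptors and ERK, GAB1 and MAP2K1 rose in LE. The counts by group below stand beside the 10% of all genes that were called in LE. GAB1, a docking protein, was 1 of 9 receptor adaptors and rose from 64.7 ± 9.45 to 554 ± 165 CPM (log2 fold change 3.09, SE 0.24, edgeR FDR 5.25e-05). Its effect was larger in LE than in GE by 2.30 (SE 0.34, edgeR interaction FDR 0.00758), although the FDR was 0.0161 to 0.0397 without gilt 02, 03, 04, 06 or 13. MAP2K1, the kinase MEK1, was 1 of 9 genes of the Ras, MEK and ERK step and rose from 79.1 ± 6.45 to 171 ± 26.8 CPM (log2 fold change 1.11, SE 0.17, edgeR FDR 0.00132). AKT2 was the 1 gene of 6 in the PI3K and AKT group that was called, and it fell from 125 ± 16.2 to 54.7 ± 14.7 CPM (log2 fold change −1.23, SE 0.20, edgeR FDR 0.00228). The AKT2 call was lost without control gilt 04, 06 or 13 (FDR 0.0108 to 0.0122).

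The other feedback inhibitors were called in both directions, 2 of 8 higher and 2 lower in LE, where 6.33% of all genes were called higher and 3.71% lower. DUSP4, a phosphatase that inactivates ERK in the nucleus, rose from 5.30 ± 1.95 to 224 ± 27.4 CPM (log2 fold change 5.40, SE 0.25, edgeR FDR 6.55e-06). DUSP5, also a nuclear ERK phosphatase, rose from 17.8 ± 6.36 to 73.8 ± 21.6 CPM (log2 fold change 2.06, SE 0.32, edgeR FDR 0.00148). DUSP6, the cytoplasmic ERK phosphatase, fell from 194 ± 43.3 to 39.5 ± 25.0 CPM (log2 fold change −2.26, SE 0.37, edgeR FDR 0.00207). IL17RD, a membrane inhibitor of FGF signalling also called SEF, fell from 415 ± 53.8 to 44.2 ± 45.4 CPM (log2 fold change −3.17, SE 0.55, edgeR FDR 0.00294). The last 2 calls were lost without pregnant gilt 05 (FDR 0.0101 and 0.0134).

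In GE DUSP4 rose from 4.95 ± 3.46 to 41.8 ± 18.9 CPM (log2 fold change 3.07, SE 0.53, edgeR FDR 0.141), past the unadjusted threshold also when any 1 gilt was left out. DUSP5 rose there from 3.52 ± 1.88 to 17.2 ± 7.74 CPM (log2 fold change 2.27, SE 0.50, edgeR FDR 0.28), a call that was lost without control gilt 04, 06 or 13 or pregnant gilt 01, 05 or 14. DUSP6 was not called in GE, where it was at 237 ± 146 and 380 ± 153 CPM. Of the transcription targets, FOSL1, an AP-1 subunit, was called in LE (edgeR FDR 0.000522). It had 0 to 3 counts per control library (at most 0.694 CPM) and 6.57 to 10.7 CPM in the pregnant libraries, so that no fold change is given.

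**Figure D5:**
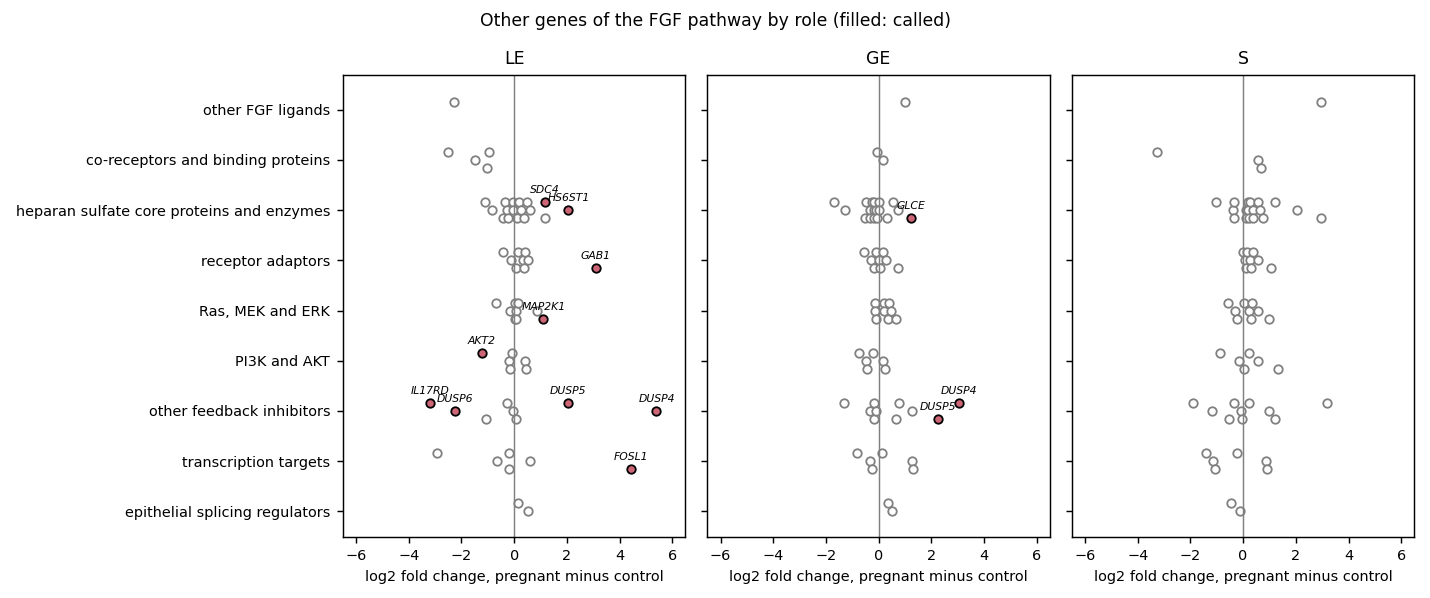
Log2 fold change between pregnant and control gilts of the other listed genes of the FGF pathway, by role, in LE, GE and S, 1 circle per gene, with the genes past the threshold filled and named. In LE 7 genes are filled to the right of 0 and 3 to the left, in GE 3 to the right, and in S none. The position of FOSL1 is a fitted value that rests on at most 3 counts per control library. Those of the ligand FGF18 and of KL and FGFBP1 in LE are fitted values at the level of few counts in the pregnant libraries.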

How the data were processed

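Per the labels and the methods of the study, total RNA of captured cells was made into libraries with the Ovation SoLo Single Cell RNA-Seq kit. Each library held RNA of cells captured from 1 compartment of 1 gilt, not of a single cell. The authors clipped adapters, aligned reads to the pig genome Sscrofa 11.1 with Hisat2, collapsed PCR copies that shared random adapter bases, dropped genes of low CPM and deposited raw read counts, 1 table per compartment. How reads were counted, whether strand was used and where the CPM limit lay are not given in the sources used here. Symbols, coordinates and exon lengths came from annotation release 106 of Sscrofa11.1, which held all 12401 gene IDs.

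All listed genes of a compartment were fitted together, each compartment alone, by the quasi-likelihood F test of edgeR 4.0.16 under R 4.3.3, after TMM scaling. A gene was called at a Benjamini-Hochberg FDR below 0.01 in LE and, after the thresholds of the study, at p below 0.0021 in GE and S. The rule for LE was the stricter here, since FGFR3 was not called in LE at a quasi-likelihood p of 0.00104 (FDR 0.0102). Shares called in LE and in GE or S thus rest on unlike rules. Compartments and interactions were tested in a joint fit of 10643 genes and 22 libraries with the gilt as a block, at an FDR below 0.01. The S minus LE difference within each group was added after the data were seen. Standard errors were derived from the log2 fold change and F. CPM were computed with TMM factors of the joint table. In the fit of 1 compartment each library is 1 gilt, so that p-values measure the spread between animals. In the joint fit each gilt gives more than 1 library and is a block. The p-values of the joint fit measure the spread that remains within gilts. The value of 3 counts given as a floor covers counting error only. The gilt number pairs libraries of the same animal by the labels. Deviations from group means correlated within gilts with a median of 0.258 (LE and GE), 0.316 (LE and S) and 0.467 (GE and S), against −0.0753, −0.133 and −0.187 between gilts.

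Named were all members, the called genes of each pathway list or, with none called, the gene of its list with the highest mean CPM, and the 2 genes most like each member. Members and lists were chosen with earlier results of these data known, and 1 gene of the pathway lists was left out of the lists and their counts and is not reported here. Alternatives were RLE size factors or library size alone, at least 10 counts in every library, the likelihood ratio test, DESeq2 1.42.0, an FDR of 0.05, the 6 gilts with an S library, joint fits without a block or with a random block (limma 3.58.1), and leaving out each gilt. Tested on simulated counts with 200 genes changed by 2 on the log2 scale, the fits found 145 in LE (0 false calls), 156 in GE (24), 120 in S (18), 183 between S and LE (0) and 95 for the LE against GE interaction (0).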

Additional observations from a re-analysis of the deposited data

Results flagged for a closer look

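In 34 groups of 4 libraries, the gap between the most extreme library and its nearest neighbour was compared with the whole range of the group, and 4 groups exceeded the critical share of 0.829 for 4 samples. Chance passes about 1 in 20 groups. FGF2 in control GE had a share of 0.908, with 182 CPM in gilt 02 against 12.4 to 28.0 CPM in the other gilts. FGFR1 in control GE had a share of 0.841, with 67.7 CPM in the same library against 6.46 to 16.2 CPM. FGF10 in pregnant LE had a share of 0.889, with 46.4 CPM in gilt 01 against 21.0 to 23.8 CPM. FGFR4 in control LE had a share of 0.869, with a low 5.94 CPM (16 counts) in gilt 02 against 8.02 to 8.33 CPM.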

How the results depend on the processing

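No paired analysis was possible for the pregnancy effect because pregnant and control gilts are different animals. In the joint fit, dropping the replicate block left FGF7 and SPRY4 called between GE and LE, changed the number of genes called for S minus LE from 181 to 85, for the LE minus GE effect from 42 to 0 (GAB1 among those lost, FDR 0.0265) and for the LE minus S effect from 2 to 0, and turned SPRY2 to 0.14 (S minus LE) and 0.00439 (GE minus S effect). For S minus LE within pregnant gilts, 334 genes and 1 member were called with the block, 95 and 0 without it and 521 and 0 with a random one, and FGFR2 within control gilts turned to −0.085 and −0.012. A random replicate block gave 0 genes for the LE minus S effect and 0.31 for SPRY2 in the GE minus S effect.

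For pregnancy in LE 1146 genes were called, 2072 with the likelihood ratio test, 2182 with DESeq2, 2557 at an FDR below 0.05 and 435 with 6 gilts. The members called there were 1, and 2 with library size alone or at least 10 counts, 3 with the likelihood ratio test, DESeq2 or an FDR below 0.05, and 0 with 6 gilts. In GE 81 genes were called, 50 with at least 10 counts, 185 with the likelihood ratio test, 241 with DESeq2, 2 at an FDR below 0.05 and 35 with 6 gilts. The likelihood ratio test and DESeq2 each called 1 member in GE. In S 170 genes were called, 463 with the likelihood ratio test, 512 with DESeq2 and 29 at an FDR below 0.05. FGFR2 in GE was 0.12 with 6 gilts, and library size alone gave −0.00333 for SDC4 and −0.076 for MAP2K1 in S and 0.030 for SPRY2 in the GE minus S effect.

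For GE minus LE 2211 genes were called, 3749 at an FDR below 0.05 and 1427 with 6 gilts. At least 10 counts left 1 member called, since SPRY4 did not pass that filter. For S minus LE 856 genes and 1 member were called at an FDR below 0.05, 61 genes with at least 10 counts and 64 with 6 gilts. Within pregnant gilts this difference was called for 1551 genes and 2 members at an FDR below 0.05, 65 genes with 6 gilts, 0 members with at least 10 counts (SPRY4 did not pass that filter), and 108 genes and 0 members without the 3 libraries of high muscle or fibroblast markers, where FGF2 was 0.15 and SPRY2 −0.088. For the LE minus GE effect 312 were called at an FDR below 0.05, 24 with at least 10 counts and 1 with 6 gilts, where FGFR2 was −0.00078 and SPRY4 −0.22. For the LE minus S effect 5 were called at an FDR below 0.05, 0 with at least 10 counts and 1 with 6 gilts, where FGF2 was 0.081. Without the 3 libraries of high muscle or fibroblast markers, 0 were called for the LE minus S effect, and FGF2 was −0.61 in the LE minus GE and 0.052 in the GE minus S effect.

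Leaving out each gilt in turn, the genes called were 588 to 1643 (LE), 42 to 100 (GE), 65 to 221 (S), 1239 to 2316 (GE minus LE), 0 to 192 (S minus LE, 0 without control gilt 04), 37 to 380 (S minus LE in pregnant gilts, 37 and 38 without pregnant gilt 14 and 01), 0 to 1 (S minus GE), 1 to 63 (LE minus GE effect) and 0 to 1 (LE minus S effect). The members called were 0 to 3 in LE (0 without control gilt 04, 3 without pregnant gilt 14), 0 to 1 in GE, 2 to 3 for GE minus LE (3 without pregnant gilt 14) and 0 to 1 for S minus LE, also within pregnant gilts. Directions that turned without 1 gilt were, in LE, FGF2 (−0.34 to 0.79) and FGF10 (−0.37 to 0.024). In GE they were FGF2 (−1.60 to 0.66), FGFR1 (−1.08 to 0.44), FGFR3 (−0.66 to 0.25) and FLRT2 (−0.25 to 0.43). In S they were FGF7 (−0.99 to 0.67), FGF10 (−0.073 to 1.56), SPRY2 (−0.27 to 1.01), SPRY4 (−0.38 to 0.46), FLRT2 (−0.29 to 1.02), SDC4 (−0.42 to 0.43), GLCE (−0.031 to 0.84), MAP2K1 (−0.41 to 0.27), DUSP5 (−0.65 to 0.30), DUSP6 (−0.98 to 0.22) and ESRP1 (−0.39 to 0.20). In the joint fit they were SPRY2 (−0.32 to 0.35) and FGFR3 (−0.21 to 0.35) for S minus LE, FGFR3 (−0.086 to 0.26) for S minus LE in control gilts, FGF2 (−0.35 to 0.11), FGFR3 (−0.54 to 0.57) and SPRY2 (−0.14 to 1.19) for it in pregnant gilts, FGFR2 (−0.12 to 0.33) for S minus GE, FGF2 (−0.22 to 1.14) and SPRY4 (−0.079 to 0.69) for the LE minus GE effect, FGFR3 (−0.45 to 0.66) for the LE minus S effect, and FGF2 (−1.99 to 0.20) and SPRY2 (−0.34 to 0.18) for the GE minus S effect. None of these was called. The causes were not tested. In the shallowest library (LE of gilt 01) FGFR4, FGF9, FGFR3, SPRY2 and FGF10 had the lowest counts of the members (5, 14, 32, 36 and 39). Other libraries held few counts too, with 4 for FGF9 in LE of gilt 13 and 9 for SPRY4 in GE of gilt 04. FGF2 had 11 in LE of gilt 03 and FGF10 had 13 in GE of gilt 14.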

Other observations

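The genes whose log2 CPM followed a member most closely over the 22 libraries were, for FGF7, LITAF (Pearson r = 0.959, Spearman rho = 0.954) and PRNP, the prion protein gene (0.958 and 0.964). For SPRY4 they were PRKCE, a protein kinase C (0.926 and 0.929), and EPHA2, an ephrin receptor (0.915 and 0.892). For FGF2 they were SLIT3 (0.911 and 0.827) and FHL1 (0.896 and 0.767), and for FGF10 WIPF1 (0.927 and 0.896) and TSC22D3 (0.915 and 0.912). FGFR2 was followed by ACAT2 (0.866 and 0.824) and C1QBP (0.849 and 0.816), FGFR3 by TMEM8A (0.862 and 0.695) and ZNF333 (0.835 and 0.709), and SPRY2 by AVIL (0.827 and 0.705) and DLL4 (0.804 and 0.735). Over 8 libraries of 1 compartment the closest were ANKRD13C (0.970 and 0.857) and PRELID3B (0.969 and 0.929) for FGF9 in LE, UBE2E3 (0.975 and 0.905) and DKK1 (0.960 and 0.810) for FGFR4 in LE, and REXO5 (0.977 and 0.905) and KCTD9 (0.965 and 0.881) for FGFR1 in GE. Each was picked as the highest over all listed genes, the libraries share gilts and groups, and no test was made.

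The other marker lists gave these sums. Leukocyte markers (5 of 8 listed for LE and GE, 4 of 8 for S) summed to 65.5 to 188 CPM in LE, 90.7 to 125.5 CPM in GE and 66.8 to 162 CPM in S. CD3E, CD2 and CORO1A were not listed. Blood endothelium markers (6 of 7) summed to 590.5 to 1495 CPM in LE, 64.1 to 1210 CPM in GE and 256 to 1806 CPM in S. Lymphatic markers (1 of 4 in LE, none in GE, 3 of 4 in S) summed to 3.84 to 19.0 CPM in LE and 5.09 to 123.5 CPM in S.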
